A study of Homo sapiens with 372 samples.

Results

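The genes described here encode 7 enzymes that make deoxynucleotides, the building blocks of DNA, or keep their pools clean. They are RRM1, RRM2, TYMS, TK1, DUT, DTYMK and DCTPP1, and they were taken by symbol from a table of 9664 genes. All 7 were listed, and all 7 passed the detection limit, which asks for a value above 0 in more than 30% of cells in any 1 condition and which 9655 genes passed in all. The genes were selected on the E-values (expression values, defined below) of these same cells, so the differences between conditions given for them are descriptions and were not tested.

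Single cells of A2780, an established human ovarian cancer cell line, were captured on the Fluidigm C1 system, which isolates cells on a chip, and their polyA-tailed RNA was copied over its full length with Smart-seq2. The table holds 338 of the 372 cells in the labels. Untreated control cells (Ctrl) number 46. Paclitaxel (5 nM) was given for 16 h to 56 cells (Pac16h) and for 48 h to 53 (Pac48h), celecoxib (75 µM) for 2 h to 63 (Cele2h) and for 16 h to 61 (cele16h), and both drugs together for 16 h to 59 (PacCele16h). Paclitaxel stabilizes microtubules, and celecoxib inhibits cyclooxygenases. No replicate culture was named, so a condition counts as 1 sample and cells are not replicates of it. In the labels the cells of a condition share 1 code that no other condition has, and what the code marks is not stated, so a drug cannot be told apart from it or, for most conditions, from the block of 96 label numbers.

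Ribonucleotide reductase, built of the large subunit RRM1 and the small subunit RRM2, turns ribonucleotides into deoxyribonucleotides. Thymidine nucleotides need further steps: DUT hydrolyses dUTP to dUMP, TYMS methylates dUMP to dTMP, TK1 makes dTMP from salvaged thymidine, and DTYMK phosphorylates dTMP to dTDP, while DCTPP1 hydrolyses dCTP and modified forms of it. In dividing cells RRM2 and TK1 are known for transcription that peaks around S phase and for regulated protein destruction late in the cycle, whereas RRM1 protein is long-lived.

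The promoters of RRM2 and TK1, the genes on which the results turn, hold short repeated elements. RefSeq windows of 300 bases around the gene start (GRCh38.p14) were found for all 7 genes, and each window was searched on both strands for 3 patterns: CCAAT, the box bound by NF-Y; TTGGCGC or TTCCCGC, cores of E2F type; and TTTGAA, an element of late cell cycle genes. CCAAT was in 34.6% of all 35116 windows, an E2F-type core in 9.23% and TTTGAA in 15.2%. These are shares of windows with at least 1 match. RRM2 and TK1 had 2 windows each and DUT had 4, so these genes had more chances of a match than a single window. The share of windows with 2 or 3 CCAAT boxes was not computed. RRM2 had 3 CCAAT boxes before its first start, at 123, 93 and 66 bases, on the strand of the gene. TK1 had 2 CCAAT boxes on the opposite strand, 77 and 46 bases before its second start, and an E2F-type core 12 bases before it, while the window of its first start held no match. The stretches below are shown 5′ to 3′ on the strand of the gene, with the element in capitals (ATTGG is CCAAT, and GCGGGAA is TTCCCGC, read from the other strand).
RRM2, chr2:10122604-10122633 (+): ggcaaggcgcagCCAATgggaagggtcgga
RRM2, chr2:10122634-10122663 (+): ggcatggcacagCCAATgggaagggccggg
RRM2, chr2:10122661-10122690 (+): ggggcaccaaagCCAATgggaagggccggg
TK1, chr17:78187112-78187141 (-): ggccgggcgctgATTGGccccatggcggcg
TK1, chr17:78187081-78187110 (-): ggccggctcgtgATTGGccagcacgccgtg
TK1, chr17:78187046-78187075 (-): aagcggtcggcGCGGGAAccaggggcttac
All 3 RRM2 stretches read CCAATgggaaggg from the start of the box.

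E2F-type cores also lay before TYMS, at 39 bases, and before the fourth start of DUT, at 42 and 26 bases. They are shown because the means of these genes lay near the control level after both drugs, unlike RRM2 and TK1, on the main scale described below. With totals made equal TYMS differed from control by -0.95, and with linear means DUT differed by 0.81.
TYMS, chr18:657603-657632 (+): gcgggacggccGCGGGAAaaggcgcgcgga
DUT, chr15:48332144-48332173 (+): gggcggggctgGCGGGAAatttcggttttg
DUT, chr15:48332160-48332189 (+): aaatttcggttTTGGCGCgctccctgcggc
RRM1, whose mean after both drugs also lay near control (0.19), had 1 match of each pattern, with its CCAAT box 28 bases before the start. DTYMK had 2 CCAAT boxes, and DCTPP1 had no match in its window. The second start of RRM2 had 1 CCAAT box and 1 E2F-type core, and the fourth start of DUT also had 2 TTTGAA elements, while its first 3 starts had no match. A match describes these letters only. Binding was not measured, and a link between matches and levels was not tested.

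On hg38 (GENCODE version 44) RRM1 lies at chr11:4094707-4138932 on the plus strand, RRM2 at chr2:10120698-10211725 (+), TYMS at chr18:657653-673578 (+), TK1 at chr17:78174091-78187233 (-), DUT at chr15:48331011-48343373 (+), DTYMK at chr2:241675747-241686944 (-) and DCTPP1 at chr16:30423615-30430030 (-). TYMS shares 967 exon bases with the antisense gene ENOSF1, and DCTPP1 shares 645 with ZNF771. Counting by strand was not stated, so reads from the shared bases cannot be assigned to either gene. ENOSF1 had a mean E-value of 1.92 in control cells and ZNF771 one of 1.46, well under the means of TYMS and DCTPP1 given below. Pseudogenes of the same name are annotated for RRM2 (3), TYMS (2) and DUT (8), none of them listed in the table, so reads they may share with the parent gene were not followed.

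Levels are E-values, E = log2(N/10 + 1), where N is the TPM (an abundance per transcript length) divided by the authors by the highest spike-in RNA of the cell. An E-value of 0 means not detected. Because the spike-in scale carries the total RNA of a cell, the main differences are also given at the same total per cell, where N was first rescaled to the control median total. Values with no scale named are spike-in scaled. The median total over the genes listed was lower than in control cells by 0.99 (log2) in Pac16h, 0.64 in Pac48h, 0.76 in Cele2h and 1.52 in cele16h cells, and higher by 0.49 in PacCele16h cells. A difference in mean E-value was called past the limit when it exceeded log2 of 1.5 (0.585). Reads per cell are unknown. The median number of genes detected per cell lay between 6125.5 and 6630 in the 6 conditions. The culture was checked against markers: of the 8 epithelial and ovarian carcinoma markers only KRT18 was listed, detected in 23.9 to 36.5% of cells, and of 13 markers of other cells LYZ, COL1A2 and LUM were. Mean E-values by condition were 0.11 to 0.24 for LYZ, 0.20 to 0.96 for COL1A2 and 0.48 to 0.88 for LUM. LYZ was detected in 37.0% of control cells and in up to 60.7% under treatment (cele16h), in every condition more often than KRT18. COL1A2 was detected in 10.7 to 32.8% of cells and LUM in 10.2 to 29.5%, both most often in cele16h, beside 17.4 and 10.9% in control. Their part in the results was not tested, and the other markers were not analysed here.

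In control cells all 7 enzymes were common transcripts. TYMS had the highest mean E-value, 5.42 ± 1.28 (SD over 46 cells), followed by DTYMK at 5.22 ± 1.25, DCTPP1 at 5.15 ± 0.93 and DUT at 4.79 ± 0.83. RRM2 at 4.21 ± 1.77, TK1 at 4.05 ± 1.33 and RRM1 at 3.86 ± 1.52 were lower. Every neighbouring pair in this order differed by less than the SD over cells of either gene. DUT, DTYMK and DCTPP1 were detected in all 46 control cells, and all 7 together were detected in 42 of them (91.3%, exact Clopper-Pearson 95% interval 79.2 to 97.6%). Intervals of shares cover counting error only.

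**Figure D1:**
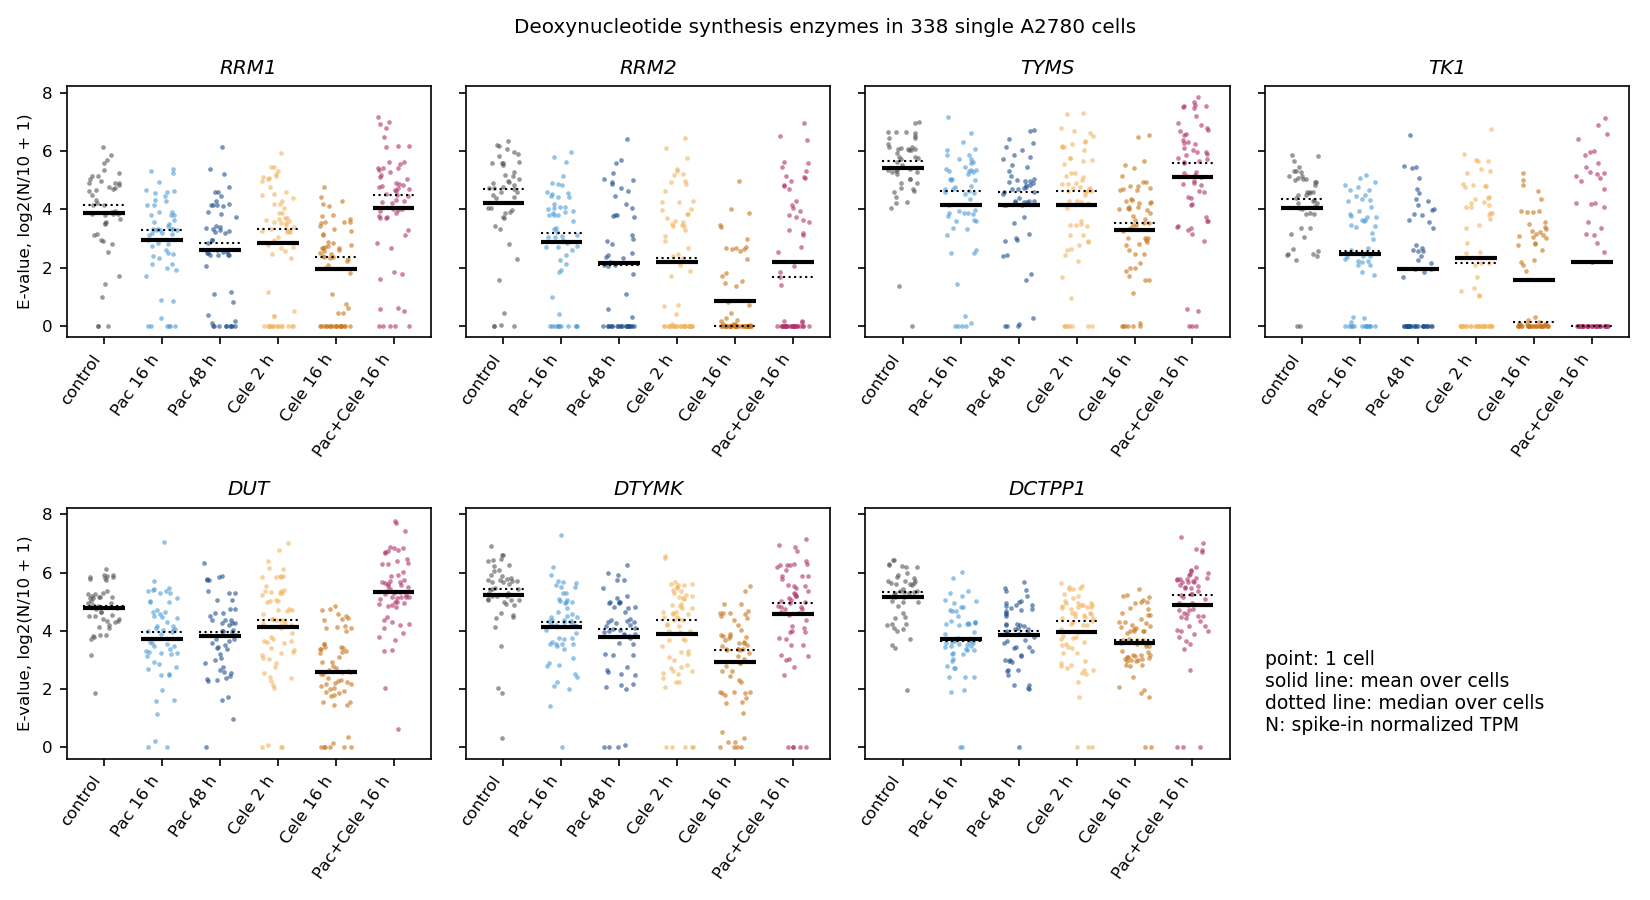
E-value, log2(N/10 + 1), of the 7 enzymes (one panel each) in every retained cell of the 6 conditions (x axis); a point is 1 cell, the solid line the mean and the dotted line the median over cells. RRM2 and TK1 show a band of cells at 0 in every treatment, which with both drugs holds 25 of 59 cells for RRM2 and 32 of 59 for TK1, while DUT has no cell at 0 with both drugs.

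RRM2 reached the lowest mean of any member, in cele16h cells. Its E-values ran from 0.00 to 6.35 with a median of 4.71 in control cells, from 0.00 to 5.96 (median 3.18) in Pac16h cells and from 0.00 to 6.41 (2.10) in Pac48h cells. The range was 0.00 to 6.45 (2.33) in Cele2h, 0.00 to 4.98 (0.00) in cele16h and 0.00 to 6.97 (1.67) in PacCele16h cells. The ranges of all conditions overlapped, and control was highest and cele16h lowest by median. Its mean E-value was 4.21 in Ctrl, 2.89 in Pac16h, 2.14 in Pac48h, 2.20 in Cele2h, 0.85 in cele16h and 2.20 in PacCele16h cells (SD over cells 1.33 to 2.34). The difference from control was -1.31, -2.06, -2.01, -3.36 and -2.00 in the order of the treatments, or -0.76, -1.71, -1.73, -2.94 and -2.38 once totals were equal. For cele16h the spike-in scaled difference of -3.36 corresponds to a 10.2-fold lower geometric mean of N/10 + 1. Only 4 of the 9655 genes had a lower difference. The log2 ratio of linear means there was -3.68.

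RRM1, whose protein pairs with RRM2 in the reductase, followed another course. RRM1 ranged from 0.00 to 6.16 in control cells (median E-value 4.14), from 0.00 to 4.76 (2.36) in cele16h cells and from 0.00 to 7.18 (4.48) in PacCele16h cells. Mean E-values were 3.86 in Ctrl, 2.95 in Pac16h, 2.60 in Pac48h, 2.84 in Cele2h, 1.95 in cele16h and 4.05 in PacCele16h cells (SD over cells 1.49 to 1.94). All single-drug means were thus below control past the limit, by 0.91 to 1.92 (0.30 to 1.13 with equal totals, where Pac16h was within it), and with both drugs the mean differed from control by 0.19 (-0.42 at the same total per cell). The ranges over cells overlapped between all conditions. Cells in which RRM1 was detected without RRM2 numbered 1 of 46 in Ctrl, 6 of 56 in Pac16h, 15 of 53 in Pac48h, 12 of 63 in Cele2h, 18 of 61 in cele16h and 22 of 59 in PacCele16h (37.3%, interval 25.0 to 50.9%). The reverse, RRM2 without RRM1, was seen in at most 4 cells of any condition.

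TK1, the salvage kinase, lay close to RRM2. Its E-values ran from 0.00 to 5.85 with a median of 4.36 in control cells, from 0.00 to 5.17 (median 2.56) in Pac16h cells and from 0.00 to 6.57 (1.94) in Pac48h cells. The range was 0.00 to 6.75 (2.14) in Cele2h, 0.00 to 5.26 (0.14) in cele16h and 0.00 to 7.14 (0.00) in PacCele16h cells. Both the highest TK1 value of all cells and the lowest median were found with both drugs. Its mean E-value was 4.05 in Ctrl, 2.48 in Pac16h, 1.96 in Pac48h, 2.32 in Cele2h, 1.57 in cele16h and 2.19 in PacCele16h cells (SD over cells 1.33 to 2.57). The differences from control were -1.58, -2.10, -1.73, -2.48 and -1.87, or -1.13, -1.88, -1.52, -1.94 and -2.29 once totals were equal. In Pac48h cells 8 of the 9655 genes had a lower difference than TK1 and 9 a lower one than RRM2. The log2 ratios of linear means there were -1.42 for RRM2, -1.25 for DCTPP1, -1.22 for DTYMK and -1.20 for TK1. TK1 did not stand out by that measure.

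For TK1 with both drugs, the lower mean went with more cells at 0. TK1 was detected in 27 of 59 such cells (45.8%, interval 32.7 to 59.2%) and in 44 of 46 control cells (95.7%, 85.2 to 99.5%). Over the detecting cells alone the median E-value was 5.09 with both drugs and 4.44 in control, or 4.10 and 4.48 with equal totals. The mean of linear values was 180 normalized TPM with both drugs and 214 in control, a log2 ratio of -0.25, so the direction in the detecting cells depends on the scale and the size of the TK1 difference depends on whether linear values or E-values are averaged.

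RRM2 showed both fewer detecting cells and lower values in them. It was detected in 93.5% of control cells (interval 82.1 to 98.6%), 80.4% of Pac16h, 62.3% of Pac48h, 61.9% of Cele2h, 47.5% of cele16h and 57.6% of PacCele16h cells (44.1 to 70.4%). The median E-value of detecting cells was 4.74 in Ctrl, 3.80 in Pac16h, 3.73 in Pac48h, 3.62 in Cele2h, 1.72 in cele16h and 4.00 in PacCele16h. Equal totals gave 4.83 in Ctrl, 4.50 in Pac16h, 4.31 in Pac48h, 4.31 in Cele2h, 2.92 in cele16h and 2.94 in PacCele16h. In cele16h 29 of 61 cells had an RRM2 E-value above 0 but only 18 (29.5%) one above 1. The share and the median of detecting cells there thus include values near 0. The mean of linear values was 283 normalized TPM in Ctrl, 22.0 in cele16h and 143 in PacCele16h cells.

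**Figure D2:**
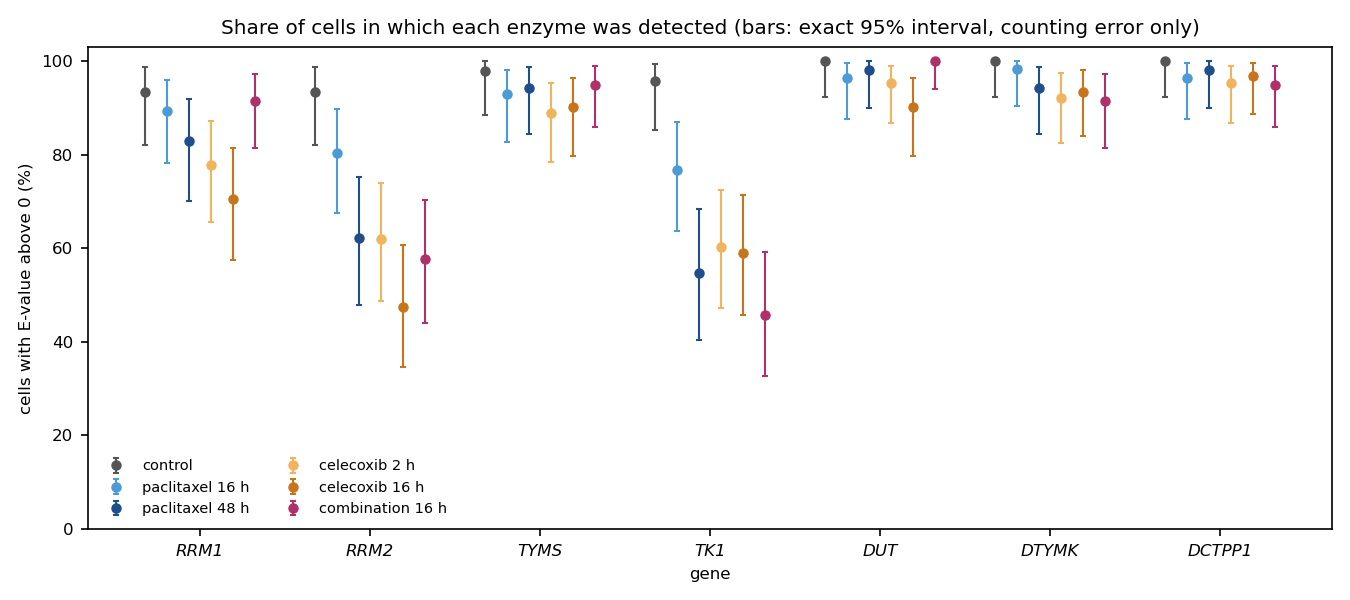
Share of cells (%) with an E-value above 0 for each of the 7 enzymes, by condition; bars are exact 95% intervals (Clopper-Pearson) of counting error. RRM2 lies at 93.5% in control cells and between 47.5 and 80.4% under treatment, TK1 at 95.7% and between 45.8 and 76.8%, while TYMS, DUT, DTYMK and DCTPP1 stay at or above 88.9%.

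The genes were missed in the same cells in part. Neither RRM2 nor TK1 was detected in 1 of 46 Ctrl, 8 of 56 Pac16h, 15 of 53 Pac48h, 17 of 63 Cele2h, 19 of 61 cele16h and 20 of 59 PacCele16h cells (33.9%, interval 22.1 to 47.4%). With both drugs 22 cells had both transcripts, 12 had RRM2 without TK1 and 5 had TK1 without RRM2. In cele16h the balance was the other way, with 13 cells that had TK1 without RRM2 and 6 with RRM2 without TK1. Some of these detections lay near 0, since RRM2 was above an E-value of 1 in 18 of 29 detecting cele16h cells and TK1 in 28 of 36. Pearson's r between RRM2 and TK1 E-values over the cells of a condition was 0.71 in control and 0.53 to 0.70 under treatment, or 0.58 and 0.42 to 0.66 at the same total per cell. Spearman's rank correlation at the same total was 0.42 in control and 0.35 (Pac16h) to 0.68 (Cele2h) under treatment. The cells of a condition differ in total RNA, which both E-values carry. The rescaled values still followed it in part, with a Pearson's r of 0.55 for RRM2 and 0.21 for TK1 in control.

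**Figure D3:**
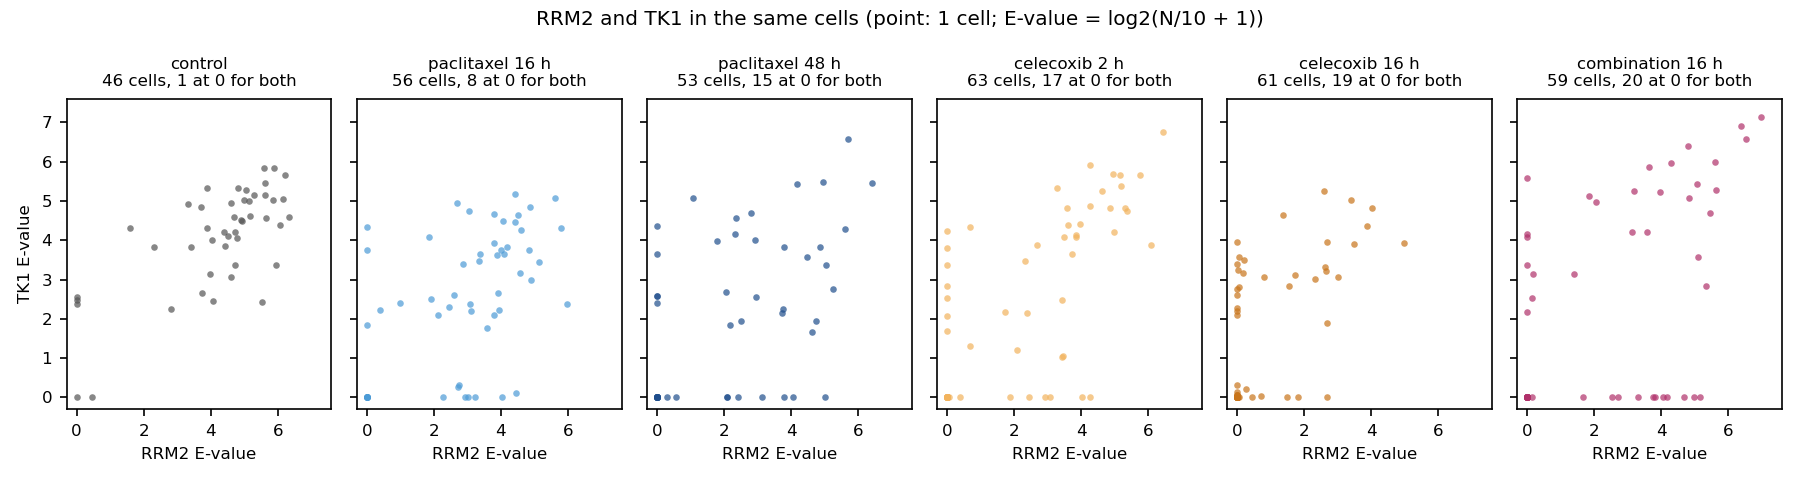
RRM2 (x axis) against TK1 (y axis) E-values, log2(N/10 + 1), in each cell, 1 panel per condition and 1 point per cell. Control cells form 1 cloud with 1 of 46 cells at 0 for both genes, whereas with both drugs 20 of 59 cells lie at 0 for both and 12 lie on the axis of RRM2 alone.

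TYMS, the synthase and a target of fluoropyrimidine drugs, kept a broad presence. TYMS ranged from 0.00 to 7.01 in control cells (median E-value 5.67), from 0.00 to 6.56 (3.53) in cele16h cells and from 0.00 to 7.84 (5.60) in PacCele16h cells. Mean E-values were 5.42 in Ctrl, 4.15 in Pac16h, 4.14 in Pac48h, 4.15 in Cele2h, 3.29 in cele16h and 5.09 in PacCele16h cells (SD over cells 1.28 to 2.02). It was past the limit below control with each single drug and within the limit with both, at -0.32, and the latter was -0.95 with equal totals. TYMS was detected without TK1 in 1 control cell and in 29 of 59 cells with both drugs.

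DUT, which supplies TYMS with dUMP, was the member with the highest mean after both drugs. DUT ranged from 1.88 to 6.12 in control cells (median E-value 4.86), from 0.00 to 4.84 (2.58) in cele16h cells and from 0.62 to 7.77 (5.33) in PacCele16h cells. Mean E-values were 4.79 in Ctrl, 3.73 in Pac16h, 3.81 in Pac48h, 4.11 in Cele2h, 2.60 in cele16h and 5.33 in PacCele16h cells (SD over cells 0.83 to 1.60). Its difference from control with both drugs was 0.54, just under the limit, and -0.14 at the same total per cell. In Cele2h it was -0.68, the smallest of the 7 differences, and -0.21 at the same total per cell.

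DTYMK, the thymidylate kinase, lay between these groups. The E-values of DTYMK ran from 0.32 to 6.92 (median 5.43) in control cells and from 0.00 to 7.16 (4.96) in PacCele16h cells. Mean E-values were 5.22 in Ctrl, 4.14 in Pac16h, 3.80 in Pac48h, 3.90 in Cele2h, 2.93 in cele16h and 4.56 in PacCele16h cells (SD over cells 1.25 to 1.79). With both drugs the difference was -0.66, just past the limit, and -1.29 at the same total per cell, where 64 of the 9655 genes were lower.

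DCTPP1, the pyrophosphatase, was the member that differed least from control in cele16h cells. The E-values of DCTPP1 ran from 1.97 to 6.44 (median 5.32) in control cells, from 0.00 to 5.45 (3.67) in cele16h cells and from 0.00 to 7.23 (5.25) in PacCele16h cells. Its mean E-value was 5.15 in Ctrl, 3.73 in Pac16h, 3.84 in Pac48h, 3.96 in Cele2h, 3.60 in cele16h and 4.90 in PacCele16h cells (SD over cells 0.93 to 1.48). In cele16h cells the difference was -1.55, and -0.29 at the same total per cell, while those of the other 6 members lay between -0.99 and -2.94 on that scale.

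By their medians over cells, control came first for RRM2, TYMS, TK1, DTYMK and DCTPP1, and the combination came first for RRM1 and DUT. The interquartile ranges of all neighbouring conditions in these orders overlapped for every member, so no single step in an order stood clear of the spread over cells. Conditions further apart could be clear of each other. For every member the interquartile range of control lay above that of cele16h. For RRM2 it was 3.78 to 5.47 in control and 0.00 to 1.55 in cele16h. For RRM1 the nearest edges were close, at 3.23 and 3.15. For DCTPP1 control (from 4.51) also lay above Pac16h (up to 4.38).

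Each treatment was set against the same control cells, so the 5 differences of a gene are not independent of each other. In Pac16h cells all 7 members were lower than control past the limit, where 37.3% of all 9655 genes were lower past it and 0.0932% were higher. The median difference of the members was -1.26 and that of all genes -0.41, while the median total per cell differed from control by -0.99. A gene with a low E-value in control has little room to be lower, which draws the all-gene values toward no difference. The members were common transcripts in control and were not compared with genes of like level. How far their place beside all genes reflects that level, here and in the comparisons below, was not tested. Equal totals left 4 members (RRM2, TYMS, TK1 and DCTPP1) lower past the limit and none higher, beside 13.2 and 1.89% of all genes, with a median of -0.62 against -0.09.

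In Pac48h cells all 7 members were again lower past the limit, where 26.6% of all genes were lower and 0.922% higher, with a median of -1.30 against -0.26. With equal totals 6 of 7, all but DUT, were lower and none higher, beside 8.08 and 4.69% of genes. Set against Pac16h, RRM2 alone was past the limit, lower by 0.75, where 0.352% of all genes were lower and 7.89% higher. RRM2 was within the limit with linear means (-0.23) and over the 22 Pac48h cells of label block 2 (-0.53). TK1 was lower by 0.52 in Pac48h, within the limit. With equal totals RRM2 (-0.96) and TK1 (-0.74) were lower past it and no member higher, beside 1.81 and 8.75% of genes. TYMS, DUT and DCTPP1 differed between the paclitaxel times by -0.01, 0.08 and 0.11.

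In Cele2h cells all 7 members were lower past the limit, where 25.7% of all genes were lower and 1.12% higher, with a median of -1.27 against -0.26. RRM2 at -2.01 and TK1 at -1.73 had the largest differences, with 16 and 40 of the 9655 genes lower than them. The log2 ratios of linear means were -1.34 for RRM2, -1.06 for DTYMK, -1.05 for DCTPP1 and -0.72 for TK1. The place of TK1 thus depends on how values are averaged. Equal totals left 6 of 7, all but DUT, lower past the limit and none higher, beside 10.9 and 4.18% of genes.

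In cele16h cells all 7 members were lower past the limit, where 43.9% of all genes were lower and 0.383% higher, and their median was -2.19 against -0.48. With equal totals 6 of 7, all but DCTPP1, were lower and none higher, beside 10.1 and 8.87% of genes, and 1 gene was lower than RRM2. Set against Cele2h, 6 members, all but DCTPP1, were lower past the limit in cele16h and none higher, where 19.4% of all genes were lower and 0.528% higher. DUT was lower by 1.51 and RRM2 by 1.35 in that comparison. RRM2 (-1.20) and DUT (-0.94) were past the limit with equal totals and no member was higher, beside 4.9 and 9.95% of genes.

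With both drugs the members parted. RRM2 (-2.00), TK1 (-1.87) and DTYMK (-0.66) were lower than control past the limit, where 1.76% of all genes were lower, and no member was higher past it, where 30.4% of genes were. RRM1, TYMS, DUT and DCTPP1 lay between -0.32 and 0.54. Of the 9655 genes, 3 had a lower difference than RRM2 and 7 a lower one than TK1. The median of the members was -0.32 and that of all genes 0.33. Equal totals put 5 members (RRM2, TYMS, TK1, DTYMK and DCTPP1) lower past the limit and none higher, beside 7.64 and 7.87% of genes, with a median of -0.95 against 0.02.

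**Figure D4:**
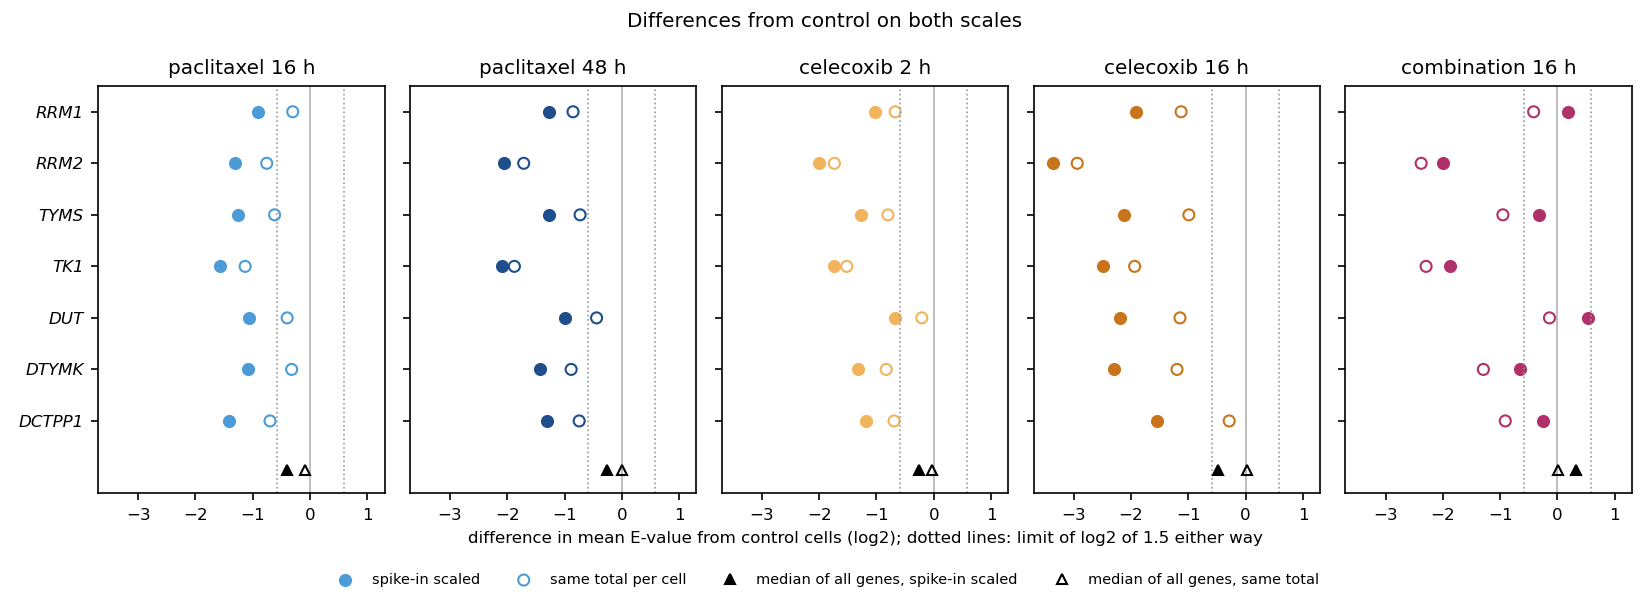
Difference in mean E-value (log2) from control cells for the 7 enzymes in the 5 treatments; filled points are spike-in scaled, open points are at the same total per cell, triangles are medians of all 9655 genes and dotted lines mark the limit of log2 of 1.5. RRM2 and TK1 lie furthest to the left in each panel of spike-in scaled values except paclitaxel 16 h, where DCTPP1 (-1.42) lies left of RRM2 (-1.31), and with both drugs RRM1 and DUT lie at 0.19 and 0.54 when spike-in scaled.

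Set against the single drugs, the combination differed by gene. Against Pac16h, RRM1 (1.10), TYMS (0.94), DUT (1.60) and DCTPP1 (1.17) were higher past the limit, where 62.5% of all genes were, and RRM2 (-0.69) was lower, where 0.0311% were. No gene had a lower difference than RRM2 in that comparison. All Pac16h cells and 34 of the PacCele16h cells were of label block 1, and within it RRM2 differed by -0.43, short of the limit. The log2 ratio of linear RRM2 means was 0.21, in the other direction. With equal totals RRM2 (-1.62), TK1 (-1.16) and DTYMK (-0.97) were lower past the limit and no member was higher, beside 2.11 and 13.0% of genes. Against cele16h all 7 members were higher past the limit, from 0.61 for TK1 to 2.73 for DUT, where 66.0% of genes were higher and 0.0414% lower. With equal totals RRM1 (0.71) and DUT (1.01) were higher, against 6.94% of genes, and DCTPP1 (-0.62) was lower, against 5.85%.

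Read as drug effects, these values were opposite in sign past the limit without and with the other drug for all 7 members in the case of paclitaxel, where 33.8% of all genes were, and for RRM1, TYMS, DUT and DCTPP1 in the case of celecoxib, where 37.6% were. With equal totals no member was, beside 1.24 and 1.02% of genes.

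PacCele16h and Pac48h cells were each spread over 2 blocks of label numbers, which allows a comparison within a treatment. With both drugs RRM2 differed from control by -1.74 over the 34 cells of block 1 and by -2.35 over the 25 cells of block 3, and TK1 by -2.01 and -1.68. RRM1 differed by 0.58 and -0.35 and DCTPP1 by 0.05 and -0.65, so their place near control was not the same in both blocks. In Pac48h RRM2 differed by -1.85 over 22 cells and -2.21 over 31, TK1 by -2.56 and -1.77, and DUT by -1.60 and -0.55. The 31 Pac48h cells were of block 4, as were all control cells, so the differences of -2.21 for RRM2, -1.77 for TK1 and -0.55 for DUT lie within 1 block. None of the other treatments had cells in block 4.

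Added up, the 7 transcripts made up a median of 1600 ppm of the normalized TPM in control cells. The median was 1180 ppm in Pac16h, 977 in Pac48h, 1060 in Cele2h, 820 in cele16h and 844 in PacCele16h cells. The range over cells was 237 to 2862 ppm in Ctrl and 187 to 2385 in PacCele16h, so the ranges overlapped widely. All 7 were detected in 42 of 46 Ctrl, 37 of 56 Pac16h, 22 of 53 Pac48h, 28 of 63 Cele2h, 20 of 61 cele16h and 20 of 59 PacCele16h cells (33.9%, interval 22.1 to 47.4%).

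Within a condition the members varied together from cell to cell. Over the 21 pairs of members the median Pearson's r between E-values was 0.70 in control cells (range 0.50 to 0.77) and 0.45 to 0.56 in the treatments. With equal totals it was 0.51 in control and 0.31 to 0.44 in the treatments. Spearman's rank correlation with equal totals had a median of 0.34 in control and 0.27 (Pac16h) to 0.53 (Cele2h) in the treatments. On that scale control was thus highest by Pearson's r but not by rank. DCTPP1 was the least joined member, with a median r of 0.39 at equal totals for its 6 pairs in control cells against 0.58 for the 15 pairs of the others, and of 0.09 to 0.20 against 0.39 to 0.51 in the treatments. Equal totals did not remove the link with the total. Pearson's r between the rescaled E-value and the log2 total ran from -0.04 (DUT) to 0.63 (TYMS) in control. In the treatments it was 0.06 to 0.29 for DCTPP1 and 0.18 to 0.54 for the other members. How far this bears on the place of DCTPP1 was not tested. These are descriptions over the 46 to 63 cells of each condition.

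The genes most like the members, by Pearson's r over 338 cells with the members' mean at the same total per cell, centred within each condition, were UBE2C (0.73), NUSAP1 (0.71), CENPM (0.70), GINS2 (0.69), PCLAF (0.69), PBK (0.68), SPC25 (0.68), TOP2A (0.67), HMGB2 (0.66) and CDK1 (0.66). Most are known from replication or mitosis: GINS2 is part of the replicative helicase, PCLAF binds the clamp PCNA, and UBE2C, NUSAP1, CENPM and SPC25 act in mitosis. With both drugs their differences from control ran from -1.98 for UBE2C to -0.09 for PCLAF, and from -2.50 to -0.63 at the same total per cell. By member, RRM2 was most like PBK (0.70), TK1 most like CLSPN (0.64), TYMS most like BIRC5 (0.54), RRM1 most like NUSAP1 (0.53), DTYMK most like PBK (0.53) and DUT most like GINS2 (0.49). The highest value for DCTPP1, 0.28 with STRA13, was low. The link of rescaled values with the total, given above, was not removed here either.

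The deposited table also gives a cell state that the authors predicted from the same expression values, so levels by state are descriptions and not separate evidence. Among Pac48h cells TK1 was detected in 71.4% of the 28 cells the authors called Control and in 36.0% of the 25 they called Suppressive, and RRM2 in 67.9 and 56.0%. Among Cele2h cells RRM2 was detected in 76.9% of 26 Control cells and 48.5% of 33 Suppressive cells, and TK1 in 69.2 and 48.5%. Mean RRM2 E-values of the cells called Control were 4.30 over 45 Ctrl cells, 3.67 over 23 Pac16h cells, 2.78 in Pac48h and 2.86 in Cele2h, or 4.28, 4.08, 2.97 and 3.04 with equal totals. In Pac16h RRM2 was detected in 91.3% of such cells. Of the 59 cells with both drugs 58 were called Activation, and RRM2 was detected in 56.9% of these and TK1 in 46.6%.

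The neighbouring genes of nucleotide metabolism were followed in 8 lists of 100 genes, 94 of them listed in the table. After both drugs 1 of 8 ribonucleotide reductase partners and reductants was higher than control past the limit and none lower, beside background shares of 30.4 and 1.76%, and with equal totals none was past it. RRM2B, the p53-inducible small subunit that can replace RRM2, differed by 0.53 (0.16 at the same total per cell). Its differences under the single drugs lay between -0.42 and -0.19 (-0.12 to 0.33 with equal totals), while those of RRM2 lay between -3.36 and -1.31 (-2.94 to -0.76). In cele16h 6 of the 8 were lower past the limit, where 43.9% of all genes were. Equal totals left 2 lower and 1 higher there, beside 10.1 and 8.87% of all genes, with a median of -0.07. Thioredoxin (TXN), which passes electrons to the reductase, differed by -2.25 and, with equal totals, by -0.88.

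Of 11 genes of thymidylate and folate metabolism 3 were higher past the limit after both drugs and none lower, beside 30.4 and 1.76% of all genes. Equal totals gave 3 higher and 2 lower, beside 7.87 and 7.64%. The 3 were ALDH1L2 (1.77, and 1.35 at the same total per cell), MTHFD2 (1.67 and 1.04) and SHMT2 (1.31 and 0.76), enzymes of mitochondrial one-carbon metabolism. In Cele2h ALDH1L2 (1.18 and 1.46) and MTHFD2 (0.69 and 1.29) were higher too, and in cele16h ALDH1L2 (1.00 and 1.68) was. The cytosolic enzyme MTHFD1 was lower under each single drug, with differences from -1.94 to -1.09 (-1.12 to -0.68 with equal totals).

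Of 11 listed genes of deoxynucleoside salvage, breakdown and dNTP control 3 were higher past the limit after both drugs and none lower, beside 30.4 and 1.76% of all genes. With equal totals 1 was higher and 1 lower, beside 7.87 and 7.64%. TK2, the mitochondrial thymidine kinase, differed by 0.97 (0.67 at the same total per cell), whereas the cytosolic TK1 differed by -1.87 (-2.29). DCK, the deoxycytidine kinase, differed by 0.50 (0.01) after both drugs and by -1.24 (-0.86) in cele16h. PNP, which splits purine nucleosides, was lower by 1.90 in cele16h, 1.51 in Cele2h and 1.40 in Pac16h. With equal totals it was lower by 0.95, 1.06 and 0.78.

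A further list held 23 polymerase, clamp and loader genes, which use or serve deoxynucleotides at the replication fork. After both drugs 4 were lower and 3 higher past the limit, beside 1.76 and 30.4% of all genes, with a median of 0.04. With equal totals 8 were lower and none higher, with a median of -0.45, beside 7.64 and 7.87% of all genes. The 4 were PCNA, the sliding clamp (-1.20, or -1.78 with equal totals), the flap endonuclease FEN1 (-1.11 and -1.54), the polymerase epsilon subunit POLE2 (-0.72 and -1.13) and the clamp loader subunit RFC5 (-0.63 and -1.10). In cele16h 20 of the 23 were lower past the limit, beside 43.9% of all genes, and 15 with equal totals, beside 10.1%.

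The other 4 lists cover ribonucleotide synthesis, nucleotide kinases and pool sanitizing. After both drugs 1.76% of all genes were lower than control past the limit and 30.4% higher. IMPDH1 (-0.84, or -1.17 with equal totals) was the only one of 15 listed purine genes lower past the limit and UMPS (-0.69, or -1.24) the only one of 8 pyrimidine genes, while 3 and 1 were higher. Of 13 listed nucleotide kinases 5 were higher and none lower, and of 5 pool sanitizing enzymes 1 was higher and none lower. With equal totals none of these 4 lists held a higher gene, beside 7.87% of all genes. Those lower were 3 purine genes, 2 pyrimidine genes, 3 kinases and 2 sanitizing enzymes, beside 7.64% of all genes. In cele16h the lower genes were 13 of 15 purine genes, 5 of 8 pyrimidine genes, 10 of 13 kinases and 4 of 5 sanitizing enzymes, with list medians of -1.60, -0.81, -1.27 and -1.71 beside -0.48 for all genes, of which 43.9% were lower. Equal totals left 7, 0, 2 and 2 lower, with 1 purine gene and 2 kinases higher and medians of -0.57, -0.16, -0.15 and -0.40, beside 10.1% of all genes lower and 8.87% higher. The near-identical kinases NME1 and NME2 may share reads.

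**Figure D5:**
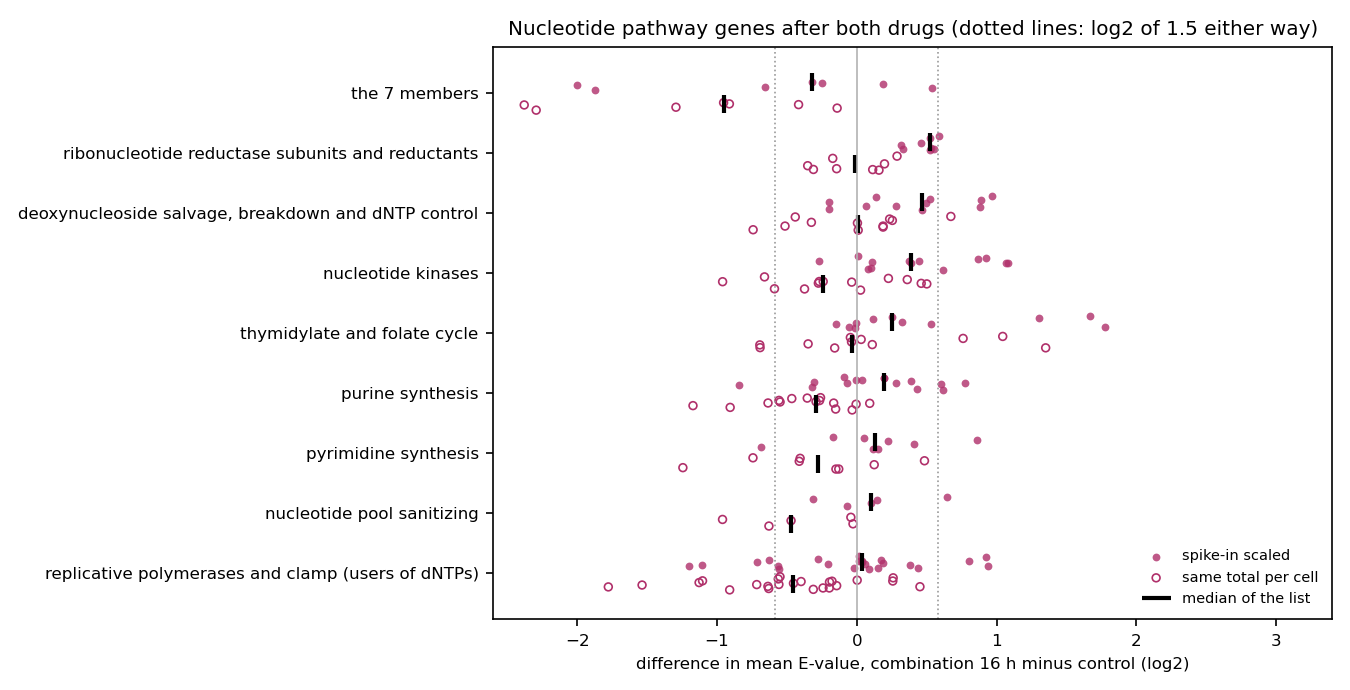
Difference in mean E-value (log2) between both drugs for 16 h and control for the 7 members and the genes of 8 nucleotide lists (rows); filled points are spike-in scaled, open points are at the same total per cell, thick bars are medians of the list and dotted lines mark log2 of 1.5 either way. RRM2 and TK1 lie at -2.00 and -1.87, below every gene of the lists, of which PCNA is lowest at -1.20, and MTHFD2 and ALDH1L2 lie furthest to the right.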

How the data were processed

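Per the labels and the study's methods, the authors trimmed reads (Trim Galore) and quantified them against hg38 transcripts of GENCODE version 28 plus 3 spike-in RNAs, using Bowtie2 and RSEM 1.3.0. They deposited log2 values, E = log2(N/10 + 1), with N the TPM scaled by the highest spike-in RNA as given above, and removed 34 cells. The depth in reads per cell is unknown. Here N was recovered from E and mean E-values were compared between conditions. No test was made, since each condition is 1 sample. Doublets were not called, for want of counts. The members and gene lists were chosen with earlier results of these data known. Named genes are the 7 members, list genes past the limit on both scales (at most 4 with the largest difference per list and comparison) and the genes of like pattern (10 for the members' mean and 3 for each member). Outside that rule RRM2B, DCK, ENOSF1 and ZNF771 were named for their role or overlap, with their values known. Alternatives were the same total per cell, linear means, a pseudocount of 1 rather than 10, medians, single label blocks, a stricter detection limit and leaving out wells noted as 0 or debris. Shares of all genes under the stricter detection limit are not given here. The steps were tested on simulated data. Software was Python 3.11.15 with scipy 1.17.1, pandas 2.3.3, numpy 2.4.6 and matplotlib 3.10.9.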

Additional observations from a re-analysis of the deposited data

Results flagged for a closer look

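The effect of a drug alone and in the presence of the other drug was opposite past the limit for the following members, and this difference was not tested, since every condition counts as 1 sample. For paclitaxel at 16 h, the effect with celecoxib minus the effect alone was 3.01 for RRM1, 2.67 for RRM2, 3.07 for TYMS, 2.19 for TK1, 3.79 for DUT, 2.71 for DTYMK and 2.72 for DCTPP1, in units of mean E-value (log2). For celecoxib at 16 h it was 3.01 for RRM1, 3.07 for TYMS, 3.79 for DUT and 2.72 for DCTPP1. The value of a gene is the same for both drugs by construction, so the celecoxib values are not separate results. RRM2, TK1 and DTYMK were not opposite under celecoxib, since their effects with paclitaxel present were -0.69, -0.29 and 0.42. Opposite effects past the limit were found in 33.8% of all 9655 genes for paclitaxel and 37.6% for celecoxib. At the same total per cell the shares were 1.24 and 1.02%, and no member was opposite past the limit. On that scale the RRM2 effect of celecoxib was -2.94 alone and -1.62 with paclitaxel.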

How the results depend on the processing

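All 31 differences from control past the limit kept their direction at the same total per cell, with linear means, with a pseudocount of 1 and with medians, and 25, 28, 31 and 29 of them stayed past it. At the same total per cell, members lower than control numbered 4 rather than 7 after paclitaxel for 16 h, and 5 rather than 3 with both drugs. On that scale the combination against paclitaxel 16 h gave 0 higher (4 before) and 3 lower (1 before), against celecoxib 16 h 2 higher (7 before) and 1 lower (0 before), paclitaxel 48 h against 16 h 2 lower (1 before), and celecoxib 16 h against 2 h 2 lower (6 before). Directions turned for RRM1 (-0.11), TYMS (-0.33) and DCTPP1 (-0.21) in the combination against paclitaxel 16 h, and for TK1 (-0.36), DTYMK (-0.10) and DCTPP1 (-0.62) against celecoxib 16 h. With linear means the combination against control gave 1 higher (DUT, 0.81) and 1 lower member (RRM2, -0.98), against paclitaxel 16 h 0 lower, where RRM2 turned to 0.21, and paclitaxel 48 h against 16 h 0 lower (RRM2, -0.23). With a pseudocount of 1, members lower numbered 2 in the combination against paclitaxel 16 h and 3 at 48 h against 16 h of paclitaxel. With medians they numbered 2 and 2, and TK1 turned to -0.14 in the combination against celecoxib 16 h. Over block 1 alone, the combination gave 1 member higher than control and 0 lower than paclitaxel 16 h. Over block 3 alone it gave 5 lower than control and 2 higher than paclitaxel 16 h. Over block 2 alone, paclitaxel 48 h gave 2 lower than 16 h, TK1 (-0.98) and DTYMK (-0.72), and RRM2 was within the limit at -0.53. The cause was not tested. No paired analysis was possible because each condition is 1 sample, and for the same reason no replicate could be left out. Genes detected, not reads, describe the depth.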
